A study of Arabidopsis thaliana with 6 samples.

Results

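The cysteine-rich receptor-like kinases are a plant receptor family whose genes carry the symbol CRK. Rows of the deposited count table were taken where the description named a cysteine-rich receptor-like protein kinase or cysteine-rich RLK, or where the gene symbol was CRK followed by a number. This rule matched 48 of 33037 rows. Of these, 41 were cysteine-rich receptor-like kinases and 7 were CDPK-related kinases, a separate kinase family, named for its likeness to calcium-dependent protein kinases, that bears the same symbol. The symbols CRK2, CRK3, CRK4, CRK6, CRK7, CRK8 and CRK34 each named 2 of the matched genes. CRK below means the cysteine-rich family, and the other family is always called CDPK-related. RNA was sequenced from closed flower buds of Arabidopsis thaliana, 3 libraries labelled naa50-1 and 3 labelled wild type, described by the submitters as biological replicates. No treatment, plant age or ecotype is named in the labels, and the nature of the naa50-1 allele is not given there. NAA50 encodes an N-terminal acetyltransferase subunit, and the series title ties it to the breakdown of the tapetum, the nutritive layer of the anther.

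A cysteine-rich receptor-like kinase spans the plasma membrane. Its outer part holds DUF26 domains, each with a conserved C-X8-C-X2-C cysteine spacing, and its inner part is a serine/threonine kinase. Many family genes lie side by side on the chromosomes as tandem copies, and many respond to salicylic acid, bacterial patterns and reactive oxygen in leaves. Overexpression of several members is known to strengthen immune responses or to cause cell death. WRKY transcription factors, which act in the same responses, bind the W-box.

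Libraries held 19727584 to 20813563 counts. Levels are given as the deposited FPKM (counts scaled by gene length and library) or, for sums over marker genes, as CPM. CPM are counts scaled to library size adjusted by TMM (a between-library scaling factor), without gene length. Every log2 fold change is naa50-1 over wild type, so that a positive value means higher in naa50-1. NAA50 (AT5G11340) was high in the libraries labelled naa50-1, at 2429, 2520 and 2973 FPKM, against 27.3, 27.1 and 23.2 FPKM in wild type. A mutant label more often goes with less transcript, so each direction given here is that of the libraries labelled naa50-1. The 5 floral organ identity genes summed to 1026 to 1342 CPM in naa50-1 libraries and to 844 to 1188 CPM in wild-type libraries, and 0 of 5 passed the test. Of 11 mature pollen markers 0 rose and 8 fell, and their summed level was 48.2 to 51.4 CPM in naa50-1 against 769 to 1087 CPM in wild type. The 12 tapetum markers held 0 calls, with 800 to 949 CPM in naa50-1 and 534 to 1087 CPM in wild type. Among 6 green tissue genes, 1 fell (LHCB6), with sums of 11320 to 13205 CPM in naa50-1 and 12917 to 16416 CPM in wild type. Among 8 senescence genes, 2 rose (SAG13 and SAG101), with sums of 112 to 140 CPM in naa50-1 and 64.5 to 101 CPM in wild type. In the authors' deposited comparison, 1 of these 8 was higher and 0 were lower. SAG12 had too few counts to be tested, and naa50-1 replicate 1 held 32 of its 33 naa50-1 counts. These marker calls stand beside 3.94% higher and 5.59% lower among all tested genes. The part of the marker shifts in the kinase results was not tested. In bulk buds, fewer cells of a type and less RNA per cell cannot be told apart.

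Receptor kinase transcripts of this family were more abundant in naa50-1 buds. Of the 48 matched genes, 21 rose and 0 fell at an adjusted p under 0.05 in the edgeR quasi-likelihood test over 21196 genes. In the same test 3.94% of all tested genes were higher and 5.59% lower, 9.53% in either direction. All 21 were cysteine-rich receptor-like kinases, 21 of 41, and 20 of them rose at least 2-fold, CRK2 being the exception. None of the 7 CDPK-related kinases passed. The filter on low counts was passed by 38 of the 48. Of these, 8 had under 10 counts in every wild-type library, so that they entered the test through their naa50-1 counts. All 8 are among the 21 called: CRK4, CRK8, CRK13, CRK23, CRK24, CRK37, CRK38 and CRK39. They stay in the counts and in the median of tested members given here. The median log2 fold change was 1.66 over the 31 cysteine-rich members that passed, 0.05 over the 7 CDPK-related kinases and -0.01 over all tested genes. Without the filter, the 40 cysteine-rich members with any count had a median of 1.56. Every naa50-1 library exceeded every wild-type library for 27 of the 48 genes, the untested CRK12 and CRK32 among them, and the reverse held for 2 of 48. Over all genes these shares were 11.6% and 13.3% of those tested, or 2870 and 3303 of all 33037 rows. The authors' deposited table gave 24 of the 48 as higher and 0 as lower at an adjusted p under 0.05, and 4.0% of its genes as higher.

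**Figure D1:**
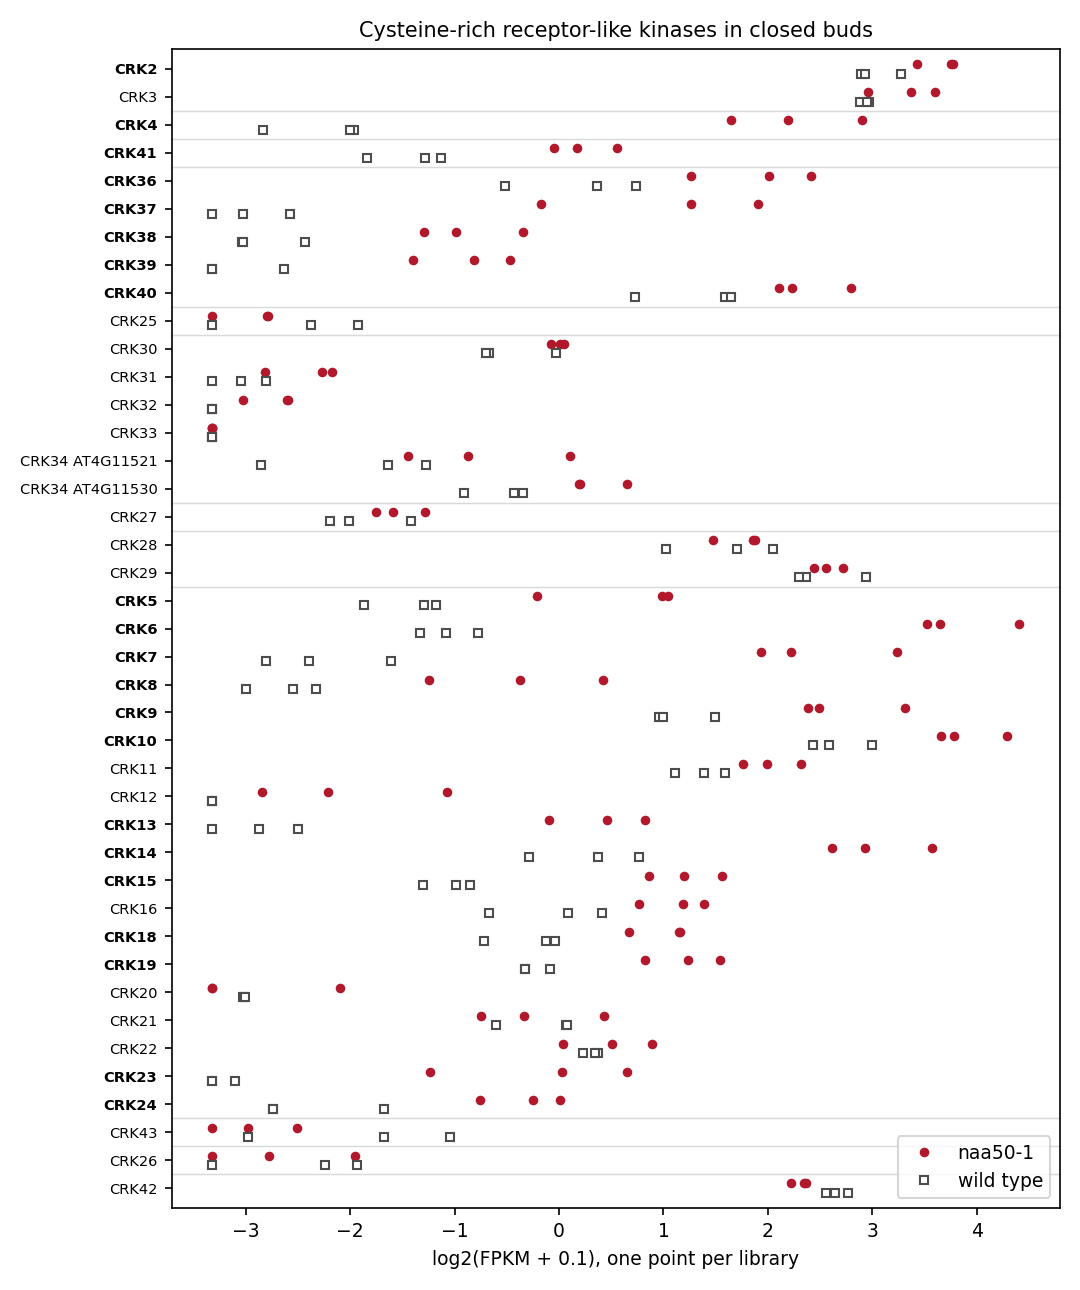
Levels of the 41 cysteine-rich receptor-like kinases as log2(FPKM + 0.1), 1 point per library (filled circles naa50-1, open squares wild type), in chromosome order with lines between tandem groups. Bold names mark the 21 genes past the threshold. In all 21 every naa50-1 library lies above every wild-type library, as in 11.6% of all tested genes. These 21 were picked by p in the same libraries, so the separation is no further support.

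Summed over the 41 cysteine-rich genes, the level was 100.1, 164 and 124 FPKM in naa50-1 replicates 1, 2 and 3, against 57.1, 55.4 and 51.8 FPKM in wild type. The groups did not overlap, and the mean was 129 ± 32.4 FPKM in naa50-1 and 54.8 ± 2.70 FPKM in wild type (SD, n = 3 each). The 7 CDPK-related kinases together had 135 ± 5.57 FPKM in naa50-1 and 133 ± 1.20 FPKM in wild type, with overlapping libraries. The naa50-1 libraries also differed among themselves. Replicate 2 was the highest of the 3 for 19 of the 21 called genes (90.5%), the exceptions being CRK2 and CRK18, against 62.9% of all 836 genes called higher. Replicate 1 was the lowest for all 21 of them, against 42.3% of all genes called higher. Without naa50-1 replicate 2, 17 of the 21 calls remained.

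**Figure D2:**
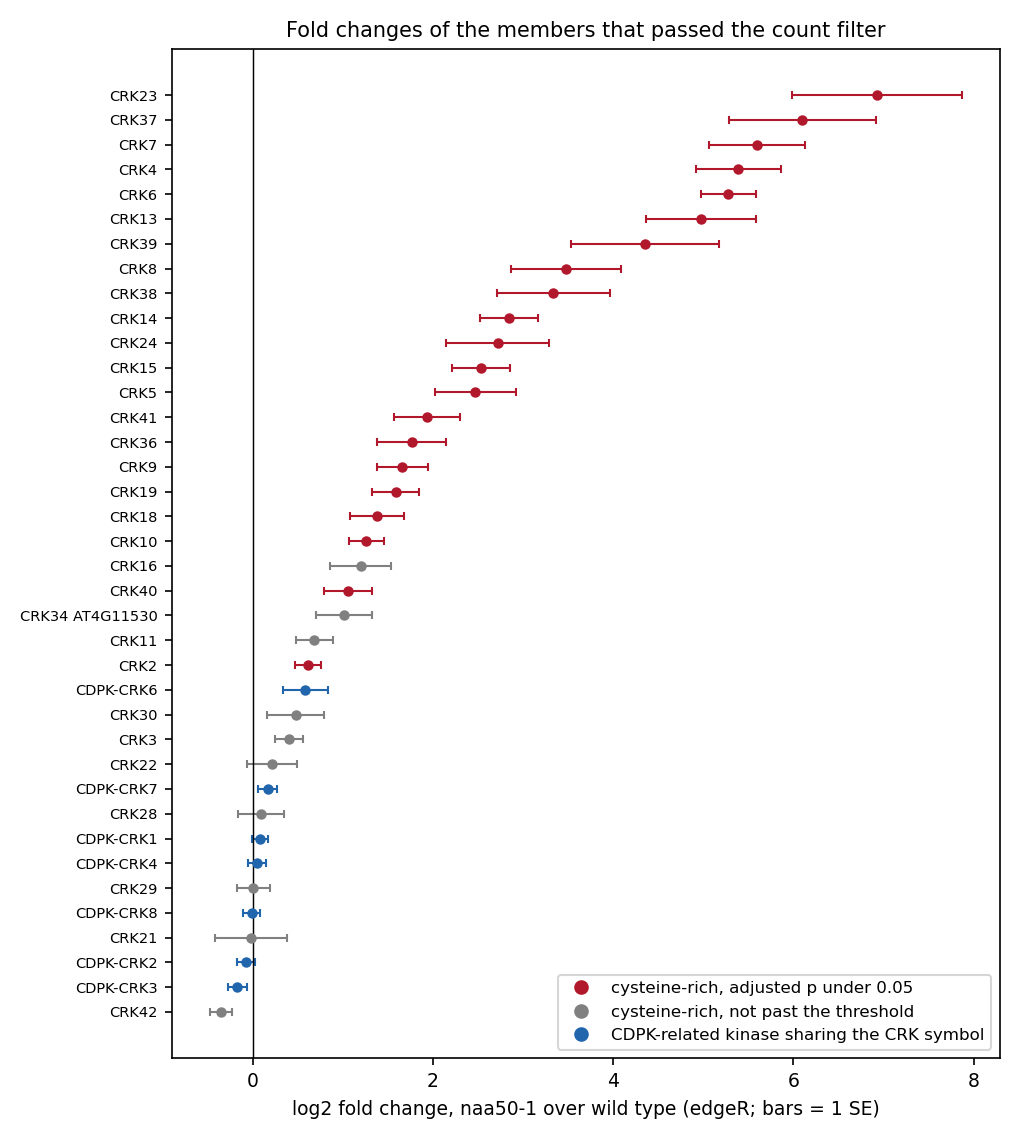
Fitted log2 fold change of naa50-1 over wild type for the 38 matched genes that passed the count filter, with bars of 1 SE. The called genes (red) run from 0.62 for CRK2 to 6.93 for CRK23, and the 7 CDPK-related kinases (blue) lie between -0.17 and 0.58.

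The promoters were read because so many members moved together and because W-boxes are known from this family. The 250 bases before each annotated start were taken from the RefSeq TAIR10.1 genome, whose exon bounds equalled the deposited coordinates for all 48 genes. A W-box was counted as TTGACC or TTGACT on either strand, overlaps included. It occurred in 27 of 41 cysteine-rich promoters (65.9%), in 2 of 7 CDPK-related promoters (28.6%) and in 7793 of 27419 promoters of protein-coding genes (28.4%). Called genes held it in 15 of 21 cases (71.4%) and the other cysteine-rich genes in 12 of 20 (60.0%). Of those 20, 10 were tested without a call and 10 had too few counts to be tested. The members descend from shared ancestors and are not independent, and a match describes letters, not a bound site. The promoters below are written 5′ to 3′ on the gene's strand, with W-boxes in capitals on either strand. The first 5 belong to called genes with W-boxes: CRK6 (chr4:12121119-12121368, plus strand), CRK5 (chr4:12120221-12120470, minus strand), CRK37 (chr4:2238120-2238369, plus strand), CRK14 (chr4:12156882-12157131, minus strand) and CRK4 (chr3:16866262-16866511, minus strand). Then come CRK7 (chr4:12125414-12125663, plus strand), a called neighbour of CRK6 with no match, CRK11 (chr4:12143859-12144108, minus strand), which held 4 matches, more than any called member, and did not pass, and CRK22 (chr4:12181375-12181624, plus strand), with no match and no call.
CRK6: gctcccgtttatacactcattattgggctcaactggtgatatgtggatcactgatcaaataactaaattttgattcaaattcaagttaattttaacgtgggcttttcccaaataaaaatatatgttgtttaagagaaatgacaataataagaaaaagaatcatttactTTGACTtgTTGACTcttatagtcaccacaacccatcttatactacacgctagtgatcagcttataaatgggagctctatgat
CRK5: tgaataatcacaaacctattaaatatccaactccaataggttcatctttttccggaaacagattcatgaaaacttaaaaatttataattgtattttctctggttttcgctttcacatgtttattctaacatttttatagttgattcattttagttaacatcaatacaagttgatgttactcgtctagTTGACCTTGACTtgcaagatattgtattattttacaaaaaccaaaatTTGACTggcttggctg
CRK37: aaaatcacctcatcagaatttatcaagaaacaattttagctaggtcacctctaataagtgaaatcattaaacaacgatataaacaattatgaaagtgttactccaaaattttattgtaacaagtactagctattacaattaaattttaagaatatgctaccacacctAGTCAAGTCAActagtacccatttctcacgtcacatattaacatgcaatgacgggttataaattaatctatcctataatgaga
CRK14: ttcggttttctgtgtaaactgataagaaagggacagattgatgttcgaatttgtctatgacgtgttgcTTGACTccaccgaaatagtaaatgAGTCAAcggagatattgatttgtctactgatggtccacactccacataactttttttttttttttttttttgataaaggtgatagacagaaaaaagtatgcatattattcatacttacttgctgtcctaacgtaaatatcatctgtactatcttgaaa
CRK4: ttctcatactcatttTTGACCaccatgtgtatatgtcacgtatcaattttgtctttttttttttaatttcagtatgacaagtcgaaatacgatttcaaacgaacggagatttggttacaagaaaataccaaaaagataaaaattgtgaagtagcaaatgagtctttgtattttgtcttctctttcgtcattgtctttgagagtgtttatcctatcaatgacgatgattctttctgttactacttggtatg
CRK7: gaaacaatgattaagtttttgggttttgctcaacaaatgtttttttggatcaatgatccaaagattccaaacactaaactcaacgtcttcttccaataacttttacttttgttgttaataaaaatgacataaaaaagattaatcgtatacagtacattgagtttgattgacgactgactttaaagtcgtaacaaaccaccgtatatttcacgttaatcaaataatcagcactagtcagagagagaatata
CRK11: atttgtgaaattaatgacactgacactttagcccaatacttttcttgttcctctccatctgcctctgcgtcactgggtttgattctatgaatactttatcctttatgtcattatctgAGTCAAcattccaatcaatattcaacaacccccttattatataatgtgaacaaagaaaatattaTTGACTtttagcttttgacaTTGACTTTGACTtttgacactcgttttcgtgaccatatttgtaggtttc
CRK22: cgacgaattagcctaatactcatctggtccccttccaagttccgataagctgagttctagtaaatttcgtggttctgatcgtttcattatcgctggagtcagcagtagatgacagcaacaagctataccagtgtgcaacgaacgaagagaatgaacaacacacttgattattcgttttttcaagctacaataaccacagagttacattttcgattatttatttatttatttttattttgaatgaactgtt

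In CRK6 the matches began 82 and 74 bases before the start, and in CRK37 they began 83 and 78 bases before it and share letters. CRK5 held 3 matches, at 63, 57 and 16 bases before the start. CRK14 held matches at 182 and 158 bases before it, and CRK4 a single match 235 bases upstream. In all, 7 called members had 2 or more matches. The 6 called members with none were CRK2, CRK7, CRK10, CRK13, CRK19 and CRK40. Some called and some uncalled members held the motif and others did not, and a link between motif and call was not tested. The window of CRK16 lies inside its neighbour EMB1290 and that of CRK28 inside CRK29. That of the CRK34 gene AT4G11530 lies mostly inside AT4G11521, its W-box included, and that of CRK15 runs into CRK16. The windows were not compared with all annotated genes.

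**Figure D3:**
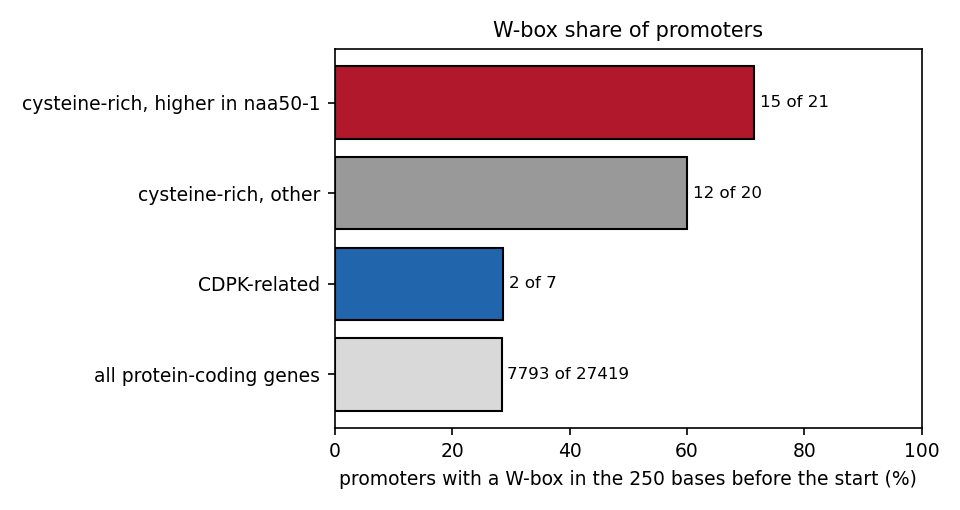
Share of promoters (percent, 250 bases before the start) that hold TTGACC or TTGACT on either strand, with counts beside the bars. The cysteine-rich genes stood at 71.4% when called and 60.0% otherwise, the CDPK-related kinases at 28.6% and all protein-coding genes at 28.4%.

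The largest group lay on chromosome 4, where CRK5 to CRK24 form a tandem array with 19 matched members at chr4:12117491-12191704. No matched gene bore the symbol CRK17. EMB1290 (AT4G23250), which overlaps CRK16 on the same strand, was not matched by the rule and is not counted here. Of the 19 matched members, 13 rose, 4 did not pass and 2 had too few counts, where 3.94% of all tested genes rose. The summed level of these 19 was 71.4 ± 21.9 FPKM in naa50-1 and 17.9 ± 2.73 FPKM in wild type (SD, n = 3 each), more than any other tandem group gained. CRK6 and CRK7, adjacent genes whose mutants are known for altered responses to reactive oxygen in the apoplast, were low in wild type and among the genes that rose most. CRK6 (AT4G23140) had 11.4, 21.1 and 12.4 FPKM in naa50-1 libraries, against 0.482, 0.296 and 0.372 FPKM in wild type. The lowest naa50-1 library lay far above the highest wild-type library, and the log2 fold change was 5.28 (SE 0.30, adjusted p = 3.8e-06, 38.8-fold). CRK7 (AT4G23150) had 3.72, 9.34 and 4.56 FPKM in naa50-1, against 0.0896, 0.0430 and 0.227 FPKM in wild type. Its groups were likewise apart, differing by 5.59 on the log2 scale (SE 0.53, adjusted p = 9.44e-05), or 6.42 without wild type replicate 3. Of the transcripts of this family, CRK6 and CRK10 had the highest mean levels per length in naa50-1 buds, at 15.0 ± 5.36 and 15.2 ± 3.73 FPKM (SD, n = 3 each).

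**Figure D4:**
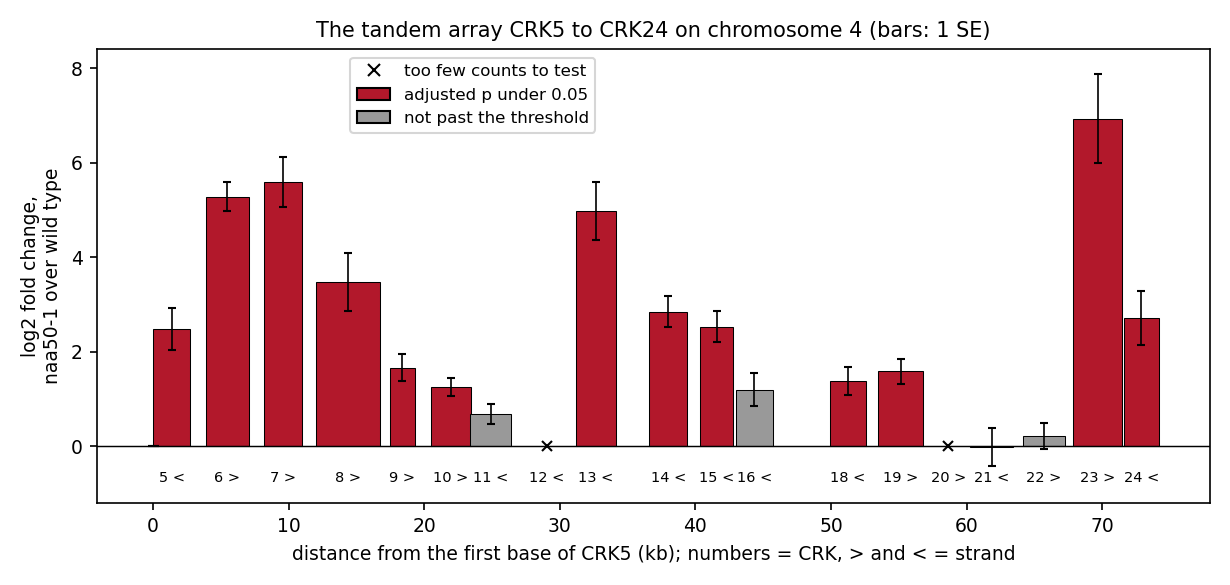
Log2 fold change of naa50-1 over wild type along the CRK5 to CRK24 array, each bar as wide as its gene, against distance from the first base of CRK5 in kb, with bars of 1 SE. Called genes (red) lie in runs, with genes not past the threshold between them (grey: CRK11, CRK16, CRK21 and CRK22), and crosses mark CRK12 and CRK20, which had too few counts.

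The remaining members at the start of the array rose too. CRK5 (AT4G23130), a salicylate-induced member whose overexpression can cause cell death, had 0.764, 1.97 and 1.88 FPKM in naa50-1, against 0.341, 0.307 and 0.173 FPKM in wild type. The groups did not overlap, and the rise was 5.55-fold (log2 fold change 2.47, SE 0.45, adjusted p = 0.00537). CRK8 (AT4G23160) had 0.321, 1.24 and 0.673 FPKM in naa50-1, against 0.0992, 0.0715 and 0.0252 FPKM in wild type. It rose with a log2 fold change of 3.47 (adjusted p = 0.00464), although limma on log2(FPKM + 1) missed the threshold (adjusted p = 0.0713). The RefSeq protein of CRK8 has 1043 residues, more than that of any other matched gene. CRK9 (AT4G23170) had 5.11, 9.85 and 5.51 FPKM in naa50-1, against 2.72, 1.85 and 1.90 FPKM in wild type, a 3.16-fold rise (log2 fold change 1.66, adjusted p = 0.00393). The RefSeq protein of CRK9 has 265 residues and carries both cysteine stretches. The HRD and DFG motifs of an active kinase were not both found in it. CRK10 (AT4G23180), another salicylate-induced member, had 12.5, 19.5 and 13.7 FPKM in naa50-1, against 7.88, 5.90 and 5.30 FPKM in wild type. It rose 2.39-fold (log2 fold change 1.26, SE 0.19, adjusted p = 0.00207) from the second highest wild-type level among the called genes. Its last 32 bases overlap those of CRK11 on the opposite strand, and the counting strand is not given in the sources used here.

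In the middle of the array, CRK13, CRK14 and CRK15 rose. CRK13 (AT4G23210), whose overexpression is known to raise salicylic acid and resistance to bacteria, had 0.837, 1.67 and 1.28 FPKM in naa50-1, against 0.0765, 0.0367 and 0 FPKM in wild type. Its log2 fold change was 4.97 (SE 0.61, adjusted p = 0.000464), or 5.89 without wild type replicate 1, from 206 counts in naa50-1 and 6 in wild type. CRK13 and CRK22 share 826 transcript bases at 96.2% identity, so reads there may be assigned to either gene. CRK22 itself had 1.32, 0.924 and 1.75 FPKM in naa50-1, against 1.19, 1.07 and 1.17 FPKM in wild type (log2 fold change 0.21, adjusted p = 0.778), with overlapping groups. CRK14 (AT4G23220) had 6.03, 11.8 and 7.54 FPKM in naa50-1, against 1.60, 1.19 and 0.720 FPKM in wild type. That was a 7.18-fold rise with separate groups (log2 fold change 2.84, SE 0.32, adjusted p = 0.000283). CRK15 (AT4G23230) had 2.25 ± 0.570 FPKM in naa50-1 and 0.388 ± 0.0743 FPKM in wild type (SD, n = 3 each), a log2 difference of 2.53 (SE 0.32, adjusted p = 0.000587).

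Toward the end of the array neighbouring genes differed in what they did. CRK18 (AT4G23260) rose to 1.49, 2.11 and 2.13 FPKM in naa50-1, against 0.816, 0.871 and 0.506 FPKM in wild type (log2 fold change 1.38, SE 0.30, adjusted p = 0.0160). It no longer passed without naa50-1 replicate 2 (adjusted p = 0.0526), without naa50-1 replicate 3 (0.0639) or without wild type replicate 3 (0.0621). CRK19 (AT4G23270), a member whose overexpression can cause cell death, had 1.68, 2.81 and 2.26 FPKM in naa50-1, against 0.842, 0.698 and 0.699 FPKM in wild type, and rose (log2 fold change 1.59, SE 0.26, adjusted p = 0.00334). Its closest relative in sequence, CRK20, shares 84.8% of residues and was nearly silent, with 6 counts over the naa50-1 libraries and 3 over the wild-type libraries. CRK21 (AT4G23290) did not pass and its groups overlapped, with 0.692, 0.497 and 1.25 FPKM in naa50-1, against 0.949, 0.952 and 0.557 FPKM in wild type (log2 fold change -0.02, SE 0.40). CRK23 (AT4G23310) had 0.326, 1.47 and 0.920 FPKM in naa50-1, while wild type held 0, 0 and 0.0166 FPKM. That is 173 counts in naa50-1 and 1 count in wild type, a count ratio of 168 (95% interval 29.8 to 6690). The fitted log2 fold change was 6.93 (SE 0.94, adjusted p = 0.000902), and 8.83 without wild type replicate 3, the only wild-type library with a count, where it depends on the prior count. Its RefSeq protein is unusual, with 830 residues and 3 cysteine stretches. CRK24 (AT4G23320), whose protein has 528 residues and 1 such stretch, had 0.491, 0.906 and 0.741 FPKM in naa50-1, against 0.0493, 0.213 and 0.0501 FPKM in wild type. Its log2 fold change was 2.72 (SE 0.57, adjusted p = 0.0127) and the groups did not overlap. Leaving out wild type replicate 1 (adjusted p = 0.0555) or 3 (0.0618) ended the call, and without wild type replicate 2 the log2 fold change was 3.76.

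Among array members short of the threshold, CRK11 (AT4G23190), a salicylate-induced member, had 3.88, 4.88 and 3.30 FPKM in naa50-1, against 2.06, 2.91 and 2.51 FPKM in wild type. The groups did not overlap, but the adjusted p was 0.0772 (log2 fold change 0.68). CRK16 (AT4G23240) had 1.60, 2.51 and 2.18 FPKM in naa50-1, against 0.963, 1.23 and 0.526 FPKM in wild type, also without overlap (log2 fold change 1.20, adjusted p = 0.0594). Its gene bounds overlap those of EMB1290 by 1190 bases on the same strand. The transcripts of CRK16 and EMB1290 match at 95.2% over 495 bases, so the counts of CRK16 are uncertain. CRK12 (AT4G23200) was left out by the filter, with 2, 20 and 6 counts in naa50-1 libraries and 0 in each wild-type library. Against a floor of 3 counts over the wild-type group it was at least 9.09-fold higher in naa50-1. In the authors' deposited table CRK11, CRK12 and CRK16 were higher, with adjusted p of 0.0388, 0.0128 and 0.0155.

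In the second tandem group, CRK36 to CRK40 at chr4:2231717-2292965, 5 of 5 members rose, beside 3.94% of all tested genes. CRK37, CRK38 and CRK39 had under 10 counts in every wild-type library and entered the test through their naa50-1 counts. CRK36 (AT4G04490), which is known to bind the immune kinase BIK1, had 2.31, 5.22 and 3.94 FPKM in naa50-1, against 0.596, 1.19 and 1.57 FPKM in wild type. It rose (log2 fold change 1.77, SE 0.38, adjusted p = 0.0157), a call lost without naa50-1 replicate 2 (adjusted p = 0.0514). CRK37 (AT4G04500) had 0.790, 3.65 and 2.31 FPKM in naa50-1, against 0.0680, 0 and 0.0230 FPKM in wild type. Only 4 counts lay in the wild-type libraries, against 311 in naa50-1, a count ratio of 75.7 (95% interval 29.3 to 280). The log2 fold change was 6.10 (SE 0.82, adjusted p = 0.000794), and 7.33 without wild type replicate 1. CRK38 (AT4G04510) had 0.466 ± 0.196 FPKM in naa50-1 and 0.0431 ± 0.0361 FPKM in wild type (SD, n = 3 each), with a log2 fold change of 3.34 (adjusted p = 0.00694), or 4.24 without wild type replicate 2. CRK39 (AT4G04540) had 71 counts in naa50-1 and 3 in wild type, a count ratio of 23.0 (95% interval 7.57 to 114). Its fitted log2 fold change was 4.36 (SE 0.82, adjusted p = 0.00705), or 7.56 without wild type replicate 3, which held all its wild-type counts and without which the value depends on the prior count. CRK40 (AT4G04570) was the strongest of the 5 in wild type and the one least changed. It had 4.22, 6.84 and 4.595 FPKM in naa50-1, against 2.91, 1.55 and 3.04 FPKM in wild type. The log2 fold change was 1.06 (SE 0.27, adjusted p = 0.0355), and the call was lost when naa50-1 replicate 2 (adjusted p = 0.116), naa50-1 replicate 3 (0.0594), wild type replicate 1 (0.0631) or wild type replicate 2 (0.0614) was left out. Its transcript matches CRK39 at 99.3% over 141 bases.

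CRK4, CRK41 and CRK2, which lie outside these arrays, rose as well. CRK4 (AT3G45860, chr3:16863088-16866261), whose overexpression strengthens pattern-triggered immunity, had 3.03, 7.40 and 4.49 FPKM in naa50-1, against 0.156, 0.150 and 0.0397 FPKM in wild type. It rose 41.9-fold (log2 fold change 5.39, SE 0.47, adjusted p = 5.44e-05), from 795 counts in naa50-1 and 18 in wild type. CRK41 (AT4G00970) had 0.866, 1.37 and 1.02 FPKM in naa50-1, against 0.311, 0.179 and 0.358 FPKM in wild type, a log2 difference of 1.93 (SE 0.36, adjusted p = 0.00705). CRK2 (AT1G70520, chr1:26584729-26587628), known to phosphorylate the NADPH oxidase RBOHD, was the highest of the called genes in wild type. It had 10.7, 13.4 and 13.5 FPKM in naa50-1, against 9.61, 7.31 and 7.53 FPKM in wild type, a 1.53-fold rise (log2 fold change 0.62, SE 0.14, adjusted p = 0.0229). The CRK2 call was lost without naa50-1 replicate 2 (adjusted p = 0.0778), naa50-1 replicate 3 (0.0895), wild type replicate 2 (0.0726) or wild type replicate 3 (0.0892). Its neighbour CRK3 (AT1G70530) had 7.66, 12.1 and 10.3 FPKM in naa50-1, against 7.75, 7.26 and 7.62 FPKM in wild type, with overlapping groups (log2 fold change 0.40, SE 0.16, adjusted p = 0.180). Among all settings run, CRK3 passed only without naa50-1 replicate 1 (adjusted p = 0.0221).

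Other members were expressed without a call. CRK28 (AT4G21400), known to associate with the co-receptor BAK1, and its neighbour CRK29 (AT4G21410) overlap by 470 bases on the same strand, so their counts are not separate. CRK29 had 5.77, 5.32 and 6.49 FPKM in naa50-1, against 5.06, 7.55 and 4.81 FPKM in wild type (log2 fold change 0.01, SE 0.19, adjusted p = 0.994). CRK28 had 2.68, 3.57 and 3.52 FPKM in naa50-1, against 1.94, 4.04 and 3.15 FPKM in wild type (log2 fold change 0.09, adjusted p = 0.914). CRK42 (AT5G40380) was the 1 cysteine-rich member with every naa50-1 library below every wild-type library. It had 5.07, 4.57 and 4.97 FPKM in naa50-1, against 6.15, 5.77 and 6.71 FPKM in wild type, but did not pass (log2 fold change -0.35, SE 0.13, adjusted p = 0.135). Its gene bounds overlap those of AT5G40382 by 130 bases on the opposite strand. CRK30 (AT4G11460) had 0.896 ± 0.0447 FPKM in naa50-1 and 0.640 ± 0.205 FPKM in wild type (SD, n = 3 each; log2 fold change 0.48). The CRK34 gene AT4G11530 had 1.05, 1.05 and 1.47 FPKM in naa50-1, against 0.687, 0.640 and 0.431 FPKM in wild type, without overlap (log2 fold change 1.01, adjusted p = 0.0798).

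CRK30 to CRK34, at chr4:6963521-6989793, formed another tandem group of 6 genes with 0 calls, 4 of them with too few counts. In that group CRK31 had 13 counts in naa50-1 and 3 in wild type, a count ratio of 4.22 (95% interval 1.16 to 23.1). CRK32 had 7 counts in naa50-1 and 0 in wild type, at least 2.27-fold higher against the floor of 3 counts. CRK33 had no count in any library, and the CRK34 gene AT4G11521 had 46 counts in naa50-1 and 15 in wild type. The protein of AT4G11521 also has 265 residues, and the HRD and DFG motifs were not both found in it. Elsewhere, CRK25 had 4 counts in naa50-1 and 11 in wild type, and CRK26 had 9 in naa50-1 and 12 in wild type. CRK27 had 31 counts in naa50-1 and 22 in wild type, and CRK43 had 4 in naa50-1 and 24 in wild type. For CRK43 wild type replicate 2 held 15 of the 24 counts. These 8 genes, with CRK12 and CRK20, are the 10 that did not pass the filter. Of the 10, CRK12 alone passed in any setting run, with DESeq2 (adjusted p = 0.0129) and in edgeR without the filter (0.0419).

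The HRD and DFG kinase motifs were found in all 7 CDPK-related kinases, as in most of the cysteine-rich family. None of the 7 passed, and their levels were close in both genotypes. CDPK-related CRK2 (AT3G19100) had 38.8, 33.9 and 33.2 FPKM in naa50-1, against 35.3, 38.0 and 37.9 FPKM in wild type (log2 fold change -0.07, SE 0.10). CDPK-related CRK1 (AT2G41140) had 36.9 ± 1.12 FPKM in naa50-1 and 34.7 ± 1.60 FPKM in wild type (SD, n = 3 each, log2 fold change 0.08, SE 0.09). CDPK-related CRK8 (AT1G49580) had 25.6 ± 1.79 FPKM in naa50-1 and 25.7 ± 0.839 FPKM in wild type (SD, n = 3 each, log2 fold change -0.01). These 3 were the most abundant transcripts per length among all 48 matched genes. CDPK-related CRK7 (AT3G56760), CRK4 (AT5G24430) and CRK3 (AT2G46700) had log2 fold changes of 0.16, 0.05 and -0.17. CDPK-related CRK6 (AT3G49370) had the largest difference of the 7, at 0.58 (SE 0.25, adjusted p = 0.233), with 1.86 ± 0.0971 FPKM in naa50-1 and 1.24 ± 0.279 FPKM in wild type (SD, n = 3 each) and no overlap. None of their proteins holds the cysteine stretch.

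The proteins of the family were compared as a description. The RefSeq coding sequences of the 41 cysteine-rich genes gave 2 stretches of the C-X8-C-X2-C spacing in most cases, 3 in CRK23 and 1 in CRK24 and CRK27. The HRD and DFG kinase motifs were not both found in CRK8, CRK9, CRK22 and the CRK34 gene AT4G11521, of which CRK8 and CRK9 rose. The median identity over 820 pairs of proteins was 41.8%. Among close pairs, CRK6 and CRK7 (75.2%) both rose steeply, and CRK39 and CRK40 (79.8%) both rose, by log2 fold changes of 4.36 and 1.06. CRK28 and CRK29 (81.4%) showed no call, and in CRK19 and CRK20 (84.8%) the first rose while the second was barely counted. Pairs of close relatives thus held like and unlike changes.

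Secreted and plasmodesmal proteins that carry DUF26 domains without a kinase included many that fell. Of 41 such genes in the table, 2 rose, 12 fell, 8 did not pass and 19 had too few counts to be tested, where 3.94% of all tested genes rose and 5.59% fell. CRRSP29 (AT3G21990) had 0.0890, 0 and 0.0867 FPKM in naa50-1, against 14.9, 18.4 and 15.6 FPKM in wild type (log2 fold change -8.02, SE 0.37, adjusted p = 9.24e-07). CRRSP26 (AT3G21970) had 4 counts in naa50-1 and 913 in wild type (log2 fold change -7.74, adjusted p = 1.74e-06). CRRSP35 and CRRSP61 fell, with log2 fold changes of -6.67 and -4.86. These falls stood beside those of the mature pollen markers, whose summed level was 48.2 to 51.4 CPM in naa50-1 and 769 to 1087 CPM in wild type, and the part of pollen content in them was not tested. The 2 secreted genes that rose were CRRSP55 (log2 fold change 1.45, adjusted p = 0.00609) and CRRSP38 (1.19, adjusted p = 0.0312).

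Genes of pattern-triggered immunity, the pathway in which several family members are known to act, moved in part. Of 31 genes listed, 10 rose, 0 fell, 18 did not pass and 3 had too few counts, beside 3.94% higher and 5.59% lower among all tested genes. SOBIR1, a receptor kinase partner of receptor-like proteins, had 26.6, 44.3 and 29.3 FPKM in naa50-1, against 7.49, 3.61 and 6.32 FPKM in wild type (log2 fold change 2.52, adjusted p = 0.000179). BIR1, a receptor-like kinase that interacts with BAK1, rose by a log2 fold change of 1.18 (adjusted p = 0.000743), the mitogen-activated kinase gene MPK3 by 1.64 (0.00166) and the transcription factor gene WRKY33 by 2.56 (0.000794). The flagellin receptor gene FLS2 (log2 fold change 0.28, adjusted p = 0.342), the co-receptor gene BAK1 (0.08, 0.782), the cytoplasmic kinase gene BIK1 (0.21, 0.637) and RBOHD (0.44, 0.212) did not pass.

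Of 16 regulators of salicylate signalling and WRKY factors, 8 rose and 0 fell, beside the same shares of all tested genes. SARD1, a transcription factor of salicylate synthesis, had 5.76, 13.2 and 5.93 FPKM in naa50-1, against 0.752, 0.883 and 1.02 FPKM in wild type (log2 fold change 3.22, adjusted p = 0.000206). Its relative CBP60G rose by 3.66 on the same scale (adjusted p = 0.000354), WRKY53 by 2.52 (0.00173) and the salicylate transporter gene EDS5 by 1.19 (0.00352). The receptor genes NPR1, NPR3 and NPR4 had log2 fold changes of 0.22, 0.20 and 0.13 and did not pass. In median, the log2 fold change was 0.80 over the 16 regulators, 0.28 over the 28 pattern immunity genes that passed the filter and 1.66 over the 31 cysteine-rich kinases that did, with no test of the difference.

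**Figure D5:**
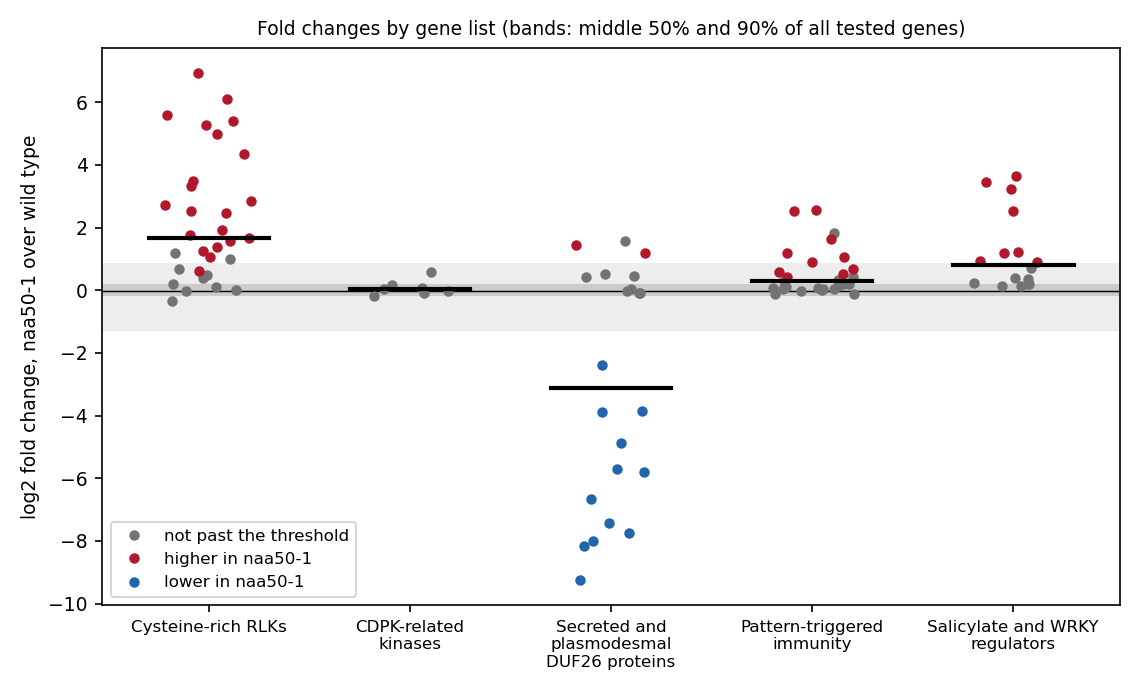
Log2 fold change of naa50-1 over wild type for tested genes of 5 lists (1 point per gene, black line at the list's median), with grey bands for the middle 50% and 90% of all tested genes. Red points (higher) fill much of the cysteine-rich list and blue points (lower) occur among the secreted and plasmodesmal DUF26 proteins, while the CDPK-related kinases lie near 0.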

How the data were processed

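The submitters' processing notes name HISAT2 2.0.5 and the TAIR10 build. How reads were counted, with which annotation and strand setting, is not given in the sources used here. The authors deposited whole-number counts per gene, FPKM values (counts divided by gene length and a median-of-ratios factor) and a comparison table with log2 fold changes, p-values and a mean normalized signal per genotype, made by the authors from size-factor scaled counts. Counts were scaled by TMM, filtered by filterByExpr and tested by genotype with the edgeR 4.0.16 quasi-likelihood test over all 21196 genes that passed (R 4.3.3, Benjamini-Hochberg adjustment, threshold 0.05). Alternatives used limma 3.58.1 and DESeq2 1.42.0, other scalings and filters, a block for the replicate number, and fits without each library. The fit was tested on simulated data. Each SE of an edgeR log2 fold change is its absolute value divided by the square root of the test's F statistic. It is an approximate value, not a fitted standard error. Library totals were 19727584 to 20813563 counts, and replicates of a genotype differed by far more than counting error (chi-square per degree of freedom 12.9 to 28.2).

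The members and gene lists were chosen with earlier results of these data known. Named genes are every member past the threshold, the 8 most abundant others, and 4 genes per further list with the smallest p; remaining members are given so that all 48 are accounted for, and those named beyond this were chosen after their values were seen. A group at 0 counts was set to a floor of 3 counts over the group. Ratios of counts have 95% intervals, which like the floors cover counting error only. Tandem groups join members under 50000 bases apart. Transcripts were compared by blastn 2.17.0 (at least 95% identity over 100 bases) and proteins by mafft 7.526.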

Additional observations from a re-analysis of the deposited data

How the results depend on the processing

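The 0 lower calls among the 48 matched genes and a count of 16 to 24 higher calls held in every setting run: 24 with DESeq2, 21 with RLE scaling, upper-quartile scaling, library totals or limma-voom, 23 without a filter, 17 with at least 1 CPM in 3 libraries, 20, 17 and 16 with limma on log2(FPKM + 0.1), log2(FPKM + 1) and unfiltered log2(FPKM + 1), 16 at an adjusted p under 0.01, 18 without members that have a near-identical transcript, and 17 to 22 with 1 library left out. The median log2 fold change of tested members was 1.23, and it was 0.60 on log2(FPKM + 1), 0.46 on the unfiltered log2(FPKM + 1) scale, 1.66 over cysteine-rich members only (chosen after seeing the data) and 1.05 to 1.38 with 1 library left out. On log2(FPKM + 1), CRK8, CRK38, CRK39 and CRK40 lost their calls, and with limma on the unfiltered log2(FPKM + 1) scale CRK2, CRK8, CRK23, CRK36 and CRK40 did, while edgeR without the filter kept all 21. A pseudocount of 1 FPKM shrinks the change of low genes by construction. At an adjusted p under 0.01, 453 of all genes, 6 pattern immunity genes and 1 DUF26 relative were called higher, against 836, 10 and 2. With 1 library left out, 1 to 2 relatives were higher. CRK40 lost its call in 8 of 17 settings and CRK2 in 6. The filter at 1 CPM left CRK23, CRK24, CRK38 and CRK39 untested. In the labels, same-numbered libraries shared only a number. The correlations of their deviations were -0.000211, 0.0585 and 0.102, and 3 libraries per genotype are too few to tell whether they shared a batch. With the replicate block, 19 members were higher, CRK2 (adjusted p = 0.0531) and CRK40 (0.0808) being lost, and 1 relative was higher. Members with under 10 wild-type counts per library have wide folds at this depth.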

Other observations

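Replicate 2 was also the highest naa50-1 library for the summed FPKM of both immune lists and of the tapetum list. Replicate 1 was highest for the green tissue, mature pollen, senescence and secreted or plasmodesmal DUF26 lists, and replicate 3 for floral identity. The 16 salicylate and WRKY regulators summed to 155, 233 and 138 FPKM in naa50-1 replicates 1, 2 and 3, against 99.8, 99.8 and 96.6 FPKM in wild type. The 31 pattern immunity genes summed to 452, 555 and 433 FPKM in naa50-1, against 361, 336 and 354 FPKM in wild type. The 7 CDPK-related kinases, at 140, 136 and 129 FPKM in naa50-1 and 133, 133 and 131 FPKM in wild type, did not have it highest.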
